A study of Mus musculus with 24 samples.

Results

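The comparison set 2 large liver tumors of Chop-/- mice against 7 whole livers of Chop-/- mice that had received the same carcinogen, which is 9 of the 24 samples of the series. Samples were chosen by their titles alone, and every detected gene entered the comparison, with a positive log2 difference meaning a higher level in the tumors. Chop-/- mice carry a constitutive deletion of most of the coding sequence of Ddit3, the gene that encodes the transcription factor CHOP, so all cells of the tumors and of the livers lacked it. The Chop-/- line had been backcrossed to C57BL/6J over many generations, and animals of both groups were males injected once with 25 mg/kg of diethylnitrosamine (DEN) at day 15 and killed at 9 months. DEN is a liver carcinogen that hepatocytes turn into a DNA-alkylating agent. The other groups of the study were wild-type DEN tumors (n = 3), wild-type DEN livers (n = 6), and PBS-injected Chop-/- and wild-type livers (n = 3 each), all male and 9 months old. The labels do not say whether a tumor and a liver came from the same animal, and by the study's account the DEN livers held nodules as well as tumor-free tissue. Expression was read from Illumina MouseRef-8 v2.0 BeadChips, 1 array per sample, on which the signal of a probe comes from many beads.

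CHOP is made when cells phosphorylate the translation factor eIF2α under stress, a pathway known as the integrated stress response, in which the factor ATF4 acts upstream of CHOP. Hepatocytes of the adult liver make bile acids, plasma proteins and the enzymes that detoxify drugs, and many of these genes are active in only one zone of the lobule, either near the central vein, where beta-catenin signaling is strong, or near the portal vein. Liver tumors commonly lose parts of this adult program and re-express genes of the fetal liver.

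Between 8953 and 11248 probes were detected per array (detection p under 0.01) over the series, 9728 in one Chop-/- tumor and 11248 in the other. The array names put the arrays in 3 sets of 8 (A, B and C), and the tumors are called tumor B and tumor C after their sets because the labels do not tie an array to a tumor number. Tumor B correlated with the 7 livers at a median r of 0.903 over 8969 genes and tumor C at 0.846, and the correlation between the tumors was 0.929. One liver, B_15, stood apart from the other Chop-/- DEN livers: it correlated at 0.950 with tumor B and at 0.886 with tumor C, and it was the highest liver in 843 of the 1710 genes called higher in tumors and the lowest in 883 of the 1822 called lower. It was kept under its label, and its values are given where they reach the tumors. Ddit3 was below detection in both tumors (4.71 and 4.39 on the log2 scale) and in all 7 livers (4.37 to 4.64), and whether its probe lies in the deleted stretch was not tested.

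The tumors differed from the livers across a large part of the genome. At an adjusted p under 0.05 in limma, 1710 genes were higher in tumors (19.1% of the 8969 tested) and 1822 were lower (20.3%), 39.4% in all. Among those, 851 were more than 2-fold higher and 808 more than 2-fold lower, and 83 and 98 passed 8-fold. Both tumors lay above all 7 livers in 1386 of the genes called higher, where 18.5% of all genes tested had this order, and below all 7 in 1584 of those called lower, where 22.1% did. The study's own thresholds, a fold above 1.5 with an unadjusted p under 0.05, gave 1600 higher (17.8%) and 1699 lower (18.9%), and 1051 higher and 992 lower on the authors' own log2 values. With 2 tumors and 7 livers the smallest p that an exact rank-sum test of a single gene can give is 0.0555556 (two-sided). The calls rest on the spread that limma pools over all 6 groups. The count depended on tumor C: without it 1025 genes were higher and 991 lower, against 1641 higher and 1832 lower without tumor B. Array weights, which gave both tumors a low weight of 0.296, left 766 higher and 810 lower, and without liver B_15 the counts were 1795 and 1893.

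**Figure D1:**
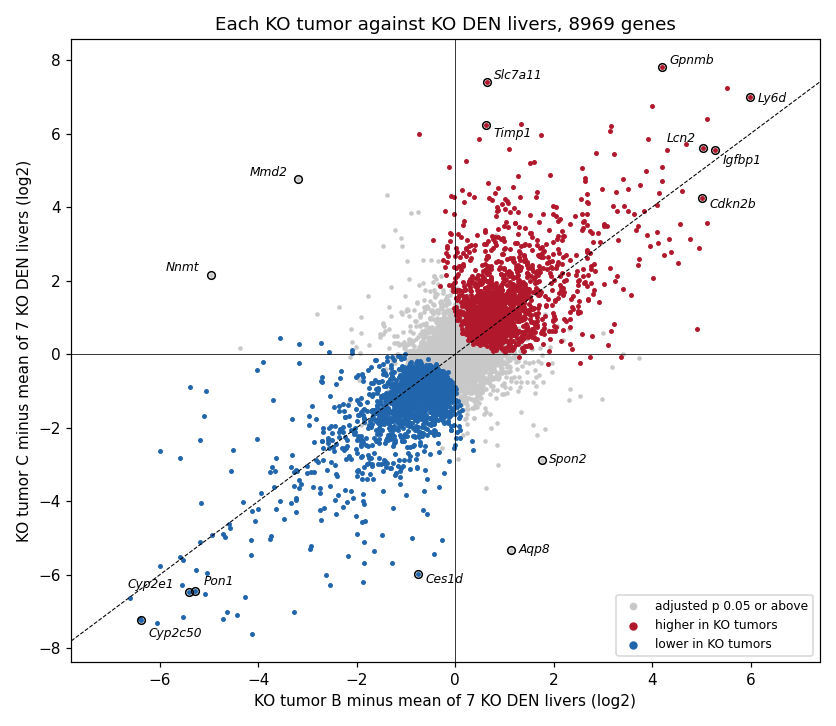
Each point is a gene, placed by its log2 difference from the mean of the 7 Chop-/- (KO) DEN livers in tumor B (horizontal) and in tumor C (vertical); red and blue mark genes called higher or lower in the tumors at an adjusted p under 0.05, grey the rest, and the dashed line marks equal differences. Most called genes lie on the same side of 0 in both tumors, and tumor C was farther from the livers in 2537 of the 3532 called genes (71.8%).

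Values below are normalized log2 signals. For each gene they are given for tumor B and then tumor C, and for the livers as the lowest, median and highest of 7, and a difference is the tumor mean minus the liver mean with its standard error from limma. If no array of a group detected a gene, its fold is a bound, computed against the higher of the dimmest detected signal on an array and the probe's own value. Lists of genes by function were written from textbook knowledge, but with earlier results of these data known. Their shares are therefore a description and not independent of the data. Genes were named by rank within the comparison or within a list, except 40 that were chosen after their values were seen: Abcb11, Abcc2, Afp, Alas2, Arg1, Asl, Asns, Ass1, Axin2, Cd163, Cebpa, Clec4g, Cps1, Ctnnb1, Cyp2a5, Cyp2b9, Cyp4f16, Cyp4f18, Cyp7b1, Elovl3, Fgf21, Fos, Gars, Glul, Gpc3, Hnf4a, Hspa5, Iars, Lgr5, Lyve1, Lyz2, Mars1, Notum, Otc, Psat1, Rps6, Shmt2, Slc10a1, Sp5 and Vsig4. Over all 8969 genes the median difference was -0.05, and 19.1% were called higher and 20.3% lower. The counts of each list stand against these shares. Of the genes named here, 16 were detected in 1 of the 2 tumors, so that the other tumor was not above background: Aqp8, C6, Ces3b, Cyp4a12a, Cyp4f18, Cyp7a1, Glul, Hsd3b5, Igf2, Il7r, Mmd2, Notum, Slc7a11, Sult2a8, Tbx3 and Thrsp. A further limit of this kind is that 24 were detected in only 1 to 6 of the 7 livers. In tissue RNA, a loss of cells of one type and a loss of RNA from each such cell cannot be told apart.

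Most cytochrome P450 enzymes, which oxidize drugs, steroids and fatty acids, were lower in the tumors. Of 43 tested members of families 1 to 4, 31 were lower and 4 higher, with a median difference of -1.66 (-1.68 with undetected genes at their bound). Cyp2e1, which oxidizes ethanol and is also the main enzyme that activates DEN, had 9.51 and 8.45 in the tumors, against 14.74, 14.92 and 15.09 in the livers (-5.95 ± 0.23 (SE), adjusted p = 1.33e-14). Cyp2c50 had 7.37 and 6.51 against 13.49, 13.75 and 14.03 (-6.82 ± 0.38 (SE), adjusted p = 2.07e-11), the largest loss among all genes that separated the groups. Cyp2c37, a close relative that metabolizes arachidonic acid, had 7.60 and 6.81 against 13.52, 14.03 and 14.26 (-6.80 ± 0.39 (SE), adjusted p = 2.75e-11). In these 3 genes the gap between groups was several times the whole range of the livers, and liver B_15 was the lowest liver in each. Cyp1a2, which oxidizes caffeine, had 5.46 and 5.43 against 11.45, 12.22 and 12.30 (-6.62 ± 0.47 (SE), adjusted p = 7.13e-10). Cyp2c29 was undetected in both tumors and at least 46.4-fold lower (adjusted p = 3.12e-08). Probes of the Cyp2c and Cyp4a clusters target genes of near-identical sequence, so a value may hold signal of more than one paralog. The exceptions that were higher were Cyp4f18, Cyp2a5, Cyp4f16 and Cyp2b9, with differences of 1.18, 1.40, 2.44 and 2.60.

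Conjugating (phase II) enzymes were more often lower than higher. Of 38 tested, 20 were lower and 2 higher (median -0.79). Ugt3a1 and Ugt3a2, which attach sugars other than glucuronic acid to small molecules, differed by -4.61 ± 0.27 (SE), adjusted p = 2.80e-11, and by -3.77 ± 0.22 (SE), adjusted p = 2.80e-11. Nat8, an N-acetyltransferase that finishes mercapturic acids, was undetected in both tumors and had 10.03, 10.32 and 10.49 in the livers, at least 33.3-fold lower (adjusted p = 5.36e-10). The sulfotransferase Sult2a8 had 7.38 and 4.89 in the tumors, against 11.58, 12.09 and 12.46 (-5.97 ± 0.49 (SE), adjusted p = 5.40e-09). Other enzymes among the largest losses were Ces3b, a carboxylesterase (-6.34 ± 0.54 (SE), adjusted p = 8.28e-09), and Pon1, the paraoxonase carried on HDL particles, with 8.59 and 7.45 in the tumors against 13.57, 13.89 and 14.14 in the livers (-5.86 ± 0.40 (SE), adjusted p = 3.42e-10).

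Genes of the perivenous zone and of beta-catenin signaling were lower in 21 of 25 cases and higher in 3, with a median of -3.15 (-3.04 with bounds). Glul, the glutamine synthetase that is confined to cells around the central vein, had 5.66 and 4.60 in the tumors, against 8.35, 8.89 and 9.51 in the livers (-3.76 ± 0.39 (SE), adjusted p = 1.75e-07). Slc1a2, a glutamate transporter of the same cells, was undetected in both tumors and at least 27.8-fold lower (adjusted p = 1.70e-10). Feedback genes that beta-catenin itself switches on were low as well. Axin2, which helps to degrade beta-catenin, was undetected in both tumors, against 5.74, 6.86 and 7.22 in the livers (at least 2.93-fold lower, adjusted p = 1.45e-06). Notum, which inactivates Wnt proteins, had 4.75 and 5.23 against 7.87, 8.43 and 8.74 (-3.42 ± 0.31 (SE), adjusted p = 2.39e-08), and the factor Sp5 was at least 5.21-fold lower (adjusted p = 1.43e-08). The stem cell receptor Lgr5 was at least 1.16-fold lower (adjusted p = 0.00263). The gene of beta-catenin itself, Ctnnb1, was higher, at 12.44 and 12.28 in the tumors against 11.33, 11.46 and 11.98 (0.85 ± 0.17 (SE), adjusted p = 4.16e-04). Liver B_15 had the lowest Axin2, Notum, Sp5 and Lgr5 of the livers and the highest Glul.

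Periportal genes and the urea cycle had 7 lower and 3 higher of 19 (median -0.43, -0.35 with bounds). The list median was -0.80 in tumor B and -0.08 in tumor C, with 3 lower without tumor B, 10 lower without tumor C, and 2 lower and none higher with array weights. The loss was large in Cyp2f2, a P450 of periportal cells (9.13 and 6.75 in tumors, against 13.26, 13.77 and 14.03 in livers, -5.82 ± 0.43 (SE), adjusted p = 1.12e-09), and in Pigr, the receptor that carries IgA into bile (6.52 and 6.20 against 10.66, 11.27 and 11.43, -4.83 ± 0.48 (SE), adjusted p = 1.22e-07). Among urea cycle enzymes, Otc was lower by 1.34 (SE 0.40, adjusted p = 0.00963) and Ass1 by 0.73 (adjusted p = 0.0364), and in Ass1 tumor C (13.42) lay inside the range of the livers (13.25 to 13.72). Cps1, Asl and Arg1 had differences of -0.47, -0.10 and 0.09 and did not pass the test.

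**Figure D2:**
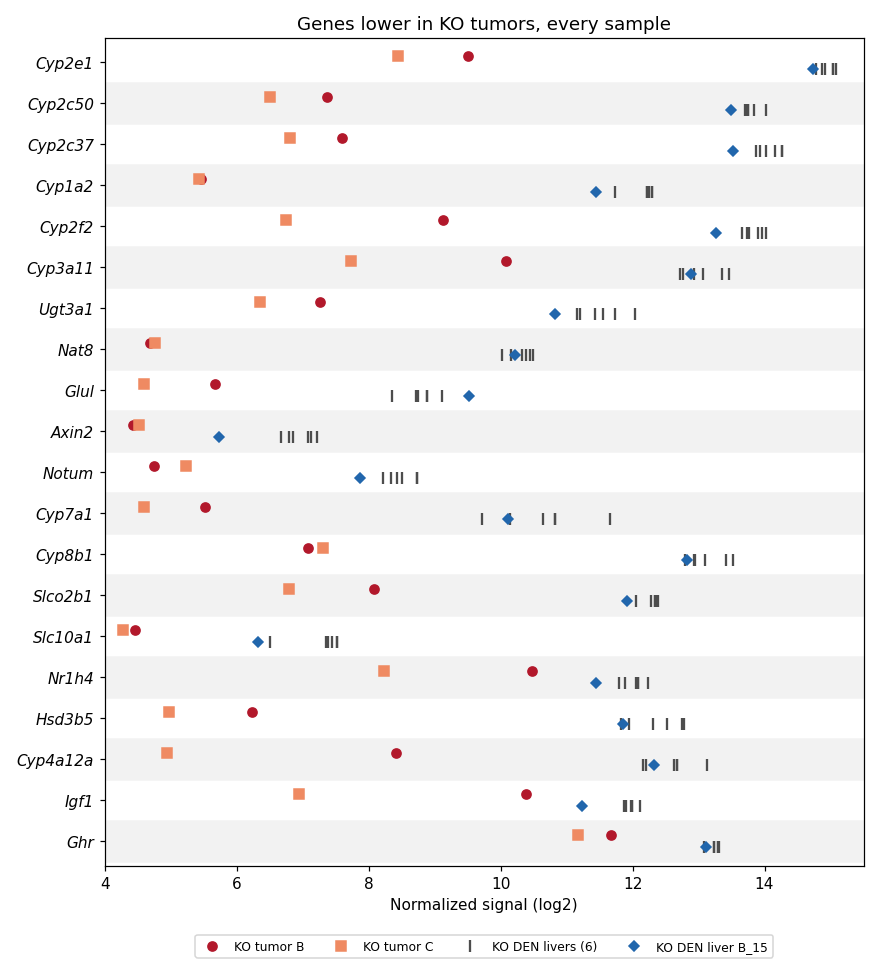
Normalized log2 signal (horizontal) of 20 genes in tumor B (circles), tumor C (squares), liver B_15 (diamonds) and the other 6 Chop-/- DEN livers (ticks). Both tumors lie left of all 7 livers in every gene shown, and in Cyp4a12a and Igf1 tumor C lies well below tumor B.

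Most genes of bile acid synthesis and transport were lower, with 18 of 23 genes lower and 2 higher (median -1.81, -1.74 with bounds). Cyp7a1, the rate-limiting enzyme of the classic pathway, had 5.51 and 4.60 in the tumors, against 9.72, 10.65 and 11.65 in the livers (-5.50 ± 0.39 (SE), adjusted p = 5.36e-10). Cyp8b1, which makes cholic acid, had 7.08 and 7.31 against 12.79, 12.95 and 13.52 (-5.88 ± 0.38 (SE), adjusted p = 1.73e-10). Cyp27a1, which starts the alternative pathway, differed by -3.04 ± 0.23 (SE), adjusted p = 1.56e-09, and Cyp7b1, the next enzyme of that route, had 6.84 and 10.22 against 12.21, 12.79 and 13.56 (-4.31 ± 0.58 (SE), adjusted p = 4.80e-06). The tumors thus differed from each other in Cyp7b1 but both lay below every liver. The uptake carriers followed: Slc10a1, the sodium-dependent bile acid importer, was undetected in both tumors and at least 3.77-fold lower (adjusted p = 1.96e-06), and Slco2b1, an organic anion importer, had 8.09 and 6.79 against 11.92, 12.34 and 12.38 (-4.80 ± 0.27 (SE), adjusted p = 2.07e-11). Abcb11, the export pump of the canalicular membrane, had 10.31 and 7.22 against 10.66, 11.03 and 11.14 (-2.18 ± 0.42 (SE), adjusted p = 2.75e-04), and Nr1h4, which encodes the bile acid receptor FXR, had 10.47 and 8.23 against 11.44, 12.05 and 12.24 (-2.59 ± 0.36 (SE), adjusted p = 7.26e-06). The members that were higher were Abcc2, a canalicular exporter of conjugates (0.62 ± 0.21 (SE), adjusted p = 0.0216), and the oxysterol hydroxylase Cyp39a1 (1.67 ± 0.37 (SE), adjusted p = 9.50e-04), and tumor B lay inside the range of the livers in Abcc2 (9.71, livers 9.60 to 9.88).

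Genes that male livers express more than female ones, under pulsed growth hormone, were lower in 16 of 20 and higher in 0 (median -2.83, -2.22 with bounds). Hsd3b5, a steroid dehydrogenase of the male liver, had 6.23 and 4.97 in the tumors, against 11.82, 12.31 and 12.78 in the livers (-6.68 ± 0.69 (SE), adjusted p = 1.70e-07). Cyp4a12a, a male-biased fatty acid hydroxylase, had 8.42 and 4.94 against 12.16, 12.62 and 13.13 (-5.86 ± 0.52 (SE), adjusted p = 1.75e-08), and Elovl3, a fatty acid elongase, was undetected in tumors and at least 10.2-fold lower (adjusted p = 7.06e-07). Of 11 female-biased genes tested, 4 were higher and 2 lower, among them Cyp17a1, a steroid hydroxylase, at 11.42 and 12.76 against 6.39, 7.79 and 10.02 (4.08 ± 0.81 (SE), adjusted p = 3.76e-04). The growth hormone and IGF axis as a list was not tilted, with 5 of 20 genes higher and 5 lower (25.0% each, against 19.1% and 20.3% of all genes). Its lower members included those given next. The growth hormone receptor Ghr was lower by 1.80 (adjusted p = 2.06e-06). Its output Igf1 had 10.38 and 6.95 against 11.24, 11.97 and 12.12 (-3.20 ± 0.49 (SE), adjusted p = 2.56e-05), and Igfals, which keeps IGF1 in the circulation, differed by -4.40 ± 0.35 (SE), adjusted p = 3.08e-09. Hepatocyte transcription factors and nuclear receptors were lower in 13 of 25 and higher in 2, led by Tbx3, a beta-catenin target in liver (-3.86 ± 0.43 (SE), adjusted p = 4.74e-07), and Onecut2, a factor of the liver lineage (-3.76 ± 0.50 (SE), adjusted p = 4.53e-06). Cebpa, a factor that drives the mature hepatocyte program, was undetected in the tumors and at least 1.88-fold lower (adjusted p = 1.42e-04), while Hnf4a, the central factor of hepatocyte identity, had 12.36 and 11.75 against 12.18, 12.36 and 12.56 and did not pass (-0.29 ± 0.18 (SE), adjusted p = 0.199). Of 18 hepatocyte marker genes, 2 were higher and 2 lower, with a median of -0.07 (none higher and 4 lower without tumor B). Their mean level was 12.45 in tumor B and 12.19 in tumor C, against 12.48, 12.56 and 12.69 as lowest, median and highest of the livers. Both tumor means lay below the lowest liver, but 9 of the 18 differences were above 0 and 9 below. The mean also holds a P450 gene of family 3 with a difference of -5.30 to -2.94 over the alternatives. The part of single members in the mean was not tested, so it does not show a loss across the list.

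Genes of the fetal liver and of liver tumors had the highest median difference of all lists. Of 19 tested, 15 were higher and none lower, with a median difference of 3.27 (3.53 with bounds). Ly6d, a GPI-anchored surface protein, had 12.20 and 13.20 in the tumors, against 4.68, 5.74 and 9.36 in the livers (6.49 ± 0.88 (SE), adjusted p = 5.68e-06). Cd63, a tetraspanin of lysosomes and exosomes, had 12.29 and 12.79 against 7.18, 7.78 and 10.70 (4.45 ± 0.56 (SE), adjusted p = 2.13e-06). Golm1, a Golgi membrane protein used as a serum marker of human liver cancer, had 11.40 and 11.11 against 6.74, 7.39 and 10.12 (3.53 ± 0.53 (SE), adjusted p = 2.04e-05). In all 3 the highest liver was B_15, and the next liver reached 7.06, 8.12 and 7.78. Liver B_15 reached the tumors in the genes of alpha-fetoprotein (Afp), the main plasma protein of the fetus, and of the oncofetal proteoglycan Gpc3. Afp had 11.70 and 12.98 in the tumors and 11.98 in B_15, against at most 7.24 in the other 6 livers (5.76 ± 1.09 (SE), adjusted p = 2.33e-04). Gpc3 had 10.69 and 11.85 in the tumors and 11.94 in B_15, against at most 8.17 in the others (3.84 ± 1.09 (SE), adjusted p = 0.00707). Of the 19 fetal and tumor genes tested, 9 had both tumors above all 7 livers, an order that 18.5% of all genes had. The list median was 2.67 in tumor B and 3.39 in tumor C, and with array weights 10 genes were called higher.

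Other genes with the largest gains were of varied roles. Igfbp1, a binding protein of insulin-like growth factors, had 12.45 and 12.71 in the tumors, against 5.25, 7.13 and 10.46 in the livers (5.41 ± 0.91 (SE), adjusted p = 6.66e-05). Lcn2, an iron-scavenging acute-phase protein of hepatocytes and neutrophils, had 13.53 and 14.10 against 6.27, 8.63 and 11.50 (5.32 ± 1.10 (SE), adjusted p = 5.43e-04). Gpnmb, a glycoprotein of lipid-laden macrophages, had 9.50 and 13.11 against 4.75, 4.81 and 6.46 (6.00 ± 0.65 (SE), adjusted p = 3.71e-07), and Mmp12, the macrophage elastase, had 9.16 and 11.91 against 4.75, 5.00 and 6.24 (5.36 ± 0.47 (SE), adjusted p = 1.43e-08). Both macrophage genes were over 2 log2 units higher in tumor C than in tumor B. Csn3, which encodes the milk protein kappa-casein, had 11.20 and 12.93 against 4.33, 4.90 and 8.71 (6.38 ± 1.26 (SE), adjusted p = 3.58e-04). Slpi, a secreted protease inhibitor, and Esm1, a proteoglycan of endothelial tip cells, differed by 4.64 and 5.21 (SE 0.78 and 0.80, adjusted p = 6.74e-05 and 2.44e-05). Hilpda, a lipid droplet protein induced by hypoxia, had 10.86 and 12.81 against 6.69, 6.77 and 7.75 (4.88 ± 0.43 (SE), adjusted p = 1.47e-08).

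Of 28 genes of S phase and mitosis, 15 were higher, 1 lower and 12 not called (median 0.90, 1.08 with bounds). Cdc20, which activates the anaphase-promoting complex, had 8.43 and 7.26 in the tumors, against 5.16, 5.61 and 6.64 in the livers (2.21 ± 0.32 (SE), adjusted p = 1.06e-05), and Birc5, the chromosomal passenger protein survivin, had 7.68 and 6.60 against 4.85, 4.98 and 5.95 (1.98 ± 0.28 (SE), adjusted p = 7.39e-06). Tumor B exceeded tumor C in both genes. The lower member was Tk1, the S-phase thymidine kinase (6.39 and 6.30 against 7.62, 8.16 and 8.33, -1.78 ± 0.21 (SE), adjusted p = 1.25e-06). Of 14 cyclin D and G1 regulators, 6 were higher, 1 lower and 7 not called. Cdkn2b, the inhibitor p15 of the cyclin D kinases, had 11.56 and 10.78 against 5.20, 6.08 and 9.89 (4.63 ± 0.89 (SE), adjusted p = 2.68e-04). Of 20 p53 targets, 10 were higher and none lower (median 0.95). Cdkn1a, the cyclin-dependent kinase inhibitor p21, had 9.29 and 10.81 against 5.30, 6.16 and 8.10 (3.74 ± 0.63 (SE), adjusted p = 7.44e-05). Mdm2, the ubiquitin ligase of p53, had 10.42 and 10.86 against 9.17, 9.46 and 9.57 (1.19 ± 0.20 (SE), adjusted p = 5.67e-05). Both tumors lay above all livers in Mdm2, liver B_15 included (9.50). Immediate-early genes, which growth factors and stress switch on within minutes, were higher in 10 of 15 and lower in none (median 1.67). Ier3, a survival gene of that class, had 9.84 and 12.76 against 6.33, 6.52 and 7.38 (4.60 ± 0.45 (SE), adjusted p = 9.58e-08), Dusp4, a phosphatase of MAP kinases, had 7.69 and 10.63 against 5.35, 5.91 and 6.24 (3.41 ± 0.43 (SE), adjusted p = 1.91e-06), and Fos had 9.08 and 9.90 against 5.11, 5.86 and 7.15 (3.62 ± 0.68 (SE), adjusted p = 2.08e-04).

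About as many ATF4 targets were higher as were not called. Of 31 tested, 15 were higher, 3 lower and 13 not called (median 0.56, 0.48 with bounds), and without tumor C 8 were higher. Ddit4, an inhibitor of mTORC1, had 7.78 and 10.53 in the tumors, against 5.55, 6.00 and 6.72 in the livers (3.05 ± 0.45 (SE), adjusted p = 1.45e-05). Atf3, a factor of the same stress pathway, was undetected in all livers and at least 4.76-fold higher in the tumors (6.92 and 8.10, adjusted p = 6.15e-07). Psat1, an enzyme of serine synthesis, had 10.50 and 9.46 against 4.65, 5.72 and 9.04 (4.06 ± 0.72 (SE), adjusted p = 1.19e-04), and Asns, the asparagine synthetase, had 10.01 and 11.58 against 6.48, 8.56 and 10.25 (2.18 ± 0.74 (SE), adjusted p = 0.0229), where liver B_15 (10.25) passed tumor B. Slc7a11, the cystine importer, rested on 1 tumor, with 5.07 in tumor B and 11.82 in tumor C, against at most 4.56 in the livers, where it was undetected (adjusted p = 7.34e-04). The lower members were the tRNA synthetases Aars and Mars1 (-1.38 and -0.55) and the mitochondrial serine hydroxymethyltransferase Shmt2 (-1.35), with adjusted p of 8.74e-05, 0.0212 and 1.17e-04. Chaperones and degradation factors of the endoplasmic reticulum showed no such tilt, with 3 higher and 3 lower of 18 (median 0.03). With array weights 0 were higher and 0 lower, so the calls of Xbp1 and Herpud1 given next were lost there. Xbp1, a factor of the unfolded protein response, was higher by 0.63 (adjusted p = 0.0107), Herpud1, which aids degradation at the ER membrane, was lower by 0.91 (adjusted p = 8.92e-04), and the chaperone Hspa5 (BiP) had 9.41 and 8.32 against 7.07, 8.31 and 8.79 (0.66 ± 0.40 (SE), adjusted p = 0.202).

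The C/EBP-ATF response element TGATGNAAT, to which ATF4 and CHOP bind as dimers with C/EBP proteins, is shown for members of the ATF4 list because the genes that hold it moved in different directions. It was searched on both strands in the stretch around each start site given by RefSeq (build GRCm38.p6), where 0.965% of 32851 promoters hold it. Of the 27 list members with a sequence, 5 hold it in any of their promoters. These shares have unlike units, promoters and genes, and the list was written from known ATF4 targets, so they do not measure an enrichment. In the 59-base stretches below, written 5′ to 3′ on the strand of the gene, capitals mark the element, which in all 5 reads in the opposite direction.
Aars, chr8:111033704-111033762, plus strand: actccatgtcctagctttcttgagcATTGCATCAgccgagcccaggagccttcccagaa
Fgf21, chr7:45615597-45615655, minus strand: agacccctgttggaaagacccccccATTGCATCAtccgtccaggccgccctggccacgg
Gars, chr6:55037945-55038003, plus strand: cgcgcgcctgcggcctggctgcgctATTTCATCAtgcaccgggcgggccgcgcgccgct
Iars, chr13:49682111-49682169, plus strand: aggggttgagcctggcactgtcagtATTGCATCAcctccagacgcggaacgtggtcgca
Nupr1, chr7:126625548-126625606, minus strand: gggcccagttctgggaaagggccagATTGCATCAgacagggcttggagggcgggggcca
Nupr1, a stress-induced chromatin protein, had 7.78 and 9.23 in the tumors, against 5.15, 6.17 and 7.07 in the livers (2.39 ± 0.39 (SE), adjusted p = 4.13e-05). Gars, the glycyl-tRNA synthetase, was higher by 0.48 (adjusted p = 0.00638). Aars, the alanyl-tRNA synthetase, had 10.05 and 10.11 against 11.12, 11.56 and 11.62 (-1.38 ± 0.24 (SE), adjusted p = 8.74e-05). Iars, the isoleucyl-tRNA synthetase, and Fgf21, a hormone of fasting and stress, had differences of 0.01 and -0.10 and did not pass. A match describes the letters of a promoter, not binding.

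**Figure D3:**
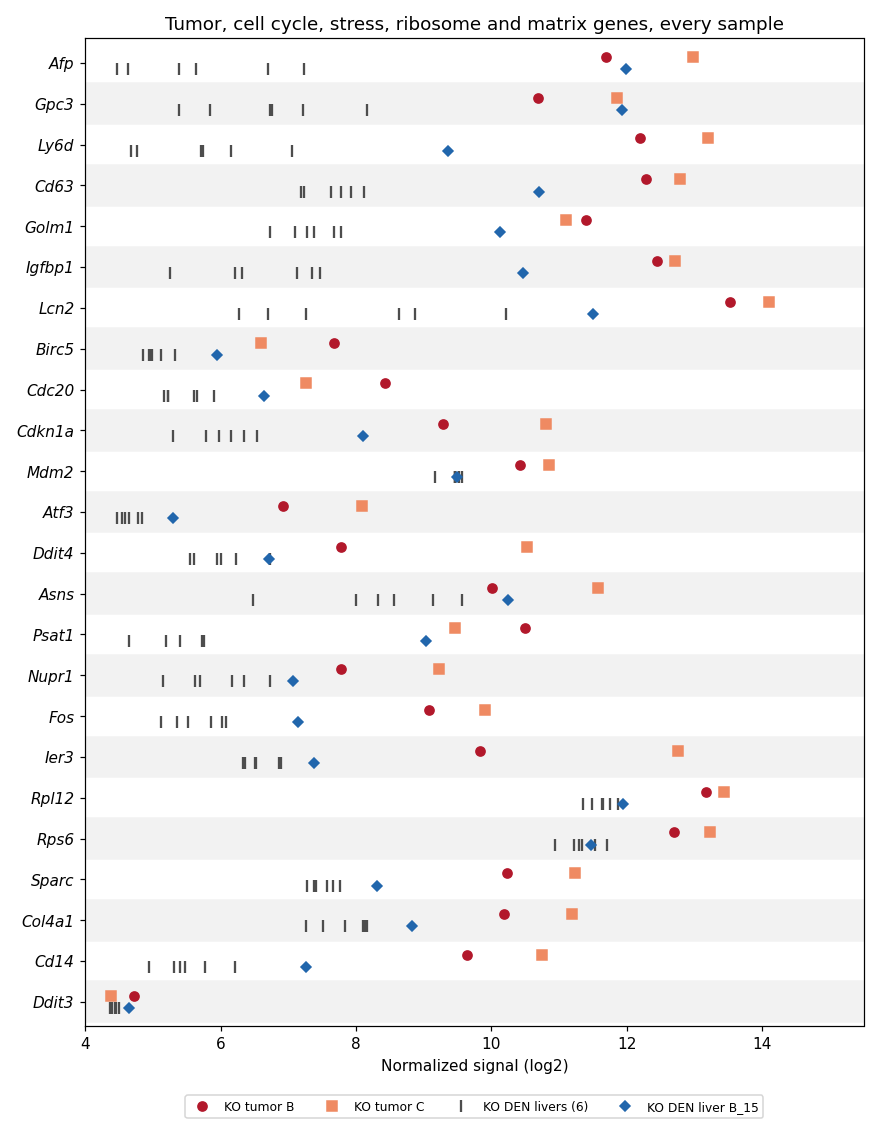
Normalized log2 signal (horizontal) of 24 genes in tumor B (circles), tumor C (squares), liver B_15 (diamonds) and the other 6 Chop-/- DEN livers (ticks). Liver B_15 lies beside the tumors in Afp and Gpc3 and among the other livers in Mdm2 and Rps6, and Ddit3 is at the level of undetected genes in all 9 samples.

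Cytosolic ribosomal proteins were higher almost as a class. Of 57 tested, 52 were higher and none lower, and 53 had both tumors above all livers (median 0.87). The count was 37 with array weights. It was also 52 after median scaling, but that could change little because the deposited signals were already quantile-normalized. Rpl12 had 13.17 and 13.44 in the tumors, against 11.36, 11.66 and 11.95 in the livers (1.63 ± 0.19 (SE), adjusted p = 8.01e-07), and Rps6, whose product is phosphorylated on growth signals, had 12.70 and 13.23 against 10.94, 11.35 and 11.72 (1.61 ± 0.25 (SE), adjusted p = 2.95e-05). The median over the list was 0.77 in tumor B and 0.94 in tumor C. Translation factors leaned the same way, with 14 of 33 higher and 1 lower (median 0.36), and without tumor C 7 were higher. Eef1b2, an exchange factor of translation elongation, had 12.48 and 12.69 against 10.97, 11.13 and 11.29 (1.45 ± 0.21 (SE), adjusted p = 1.06e-05). Mitochondrial ribosomal proteins did not, with 8 higher and 9 lower of 70 (median 0.00), and ribosome biogenesis genes had 9 higher and 5 lower of 34 (3 and 2 without tumor C). Probes of ribosomal proteins can also read processed pseudogenes.

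The matrix, the vessels and the macrophages of the tumors differed from those of the livers gene by gene. Of 36 collagen and matrix genes, 15 were higher and 2 lower, with a median of 0.10 in tumor B and 1.12 in tumor C. Without tumor C 8 were higher, and without tumor B 23. Sparc, a collagen-binding glycoprotein, had 10.23 and 11.24 in the tumors, against 7.27, 7.58 and 8.31 in the livers (3.11 ± 0.26 (SE), adjusted p = 6.23e-09), and Col4a1, a basement membrane collagen, had 10.19 and 11.19 against 7.26, 8.11 and 8.84 (2.71 ± 0.30 (SE), adjusted p = 4.54e-07). Of 20 endothelial markers, 7 were higher and 7 lower (7 and 2 without tumor C). The higher ones included pan-endothelial Pecam1 (1.81 ± 0.22 (SE), adjusted p = 1.17e-06) and Emcn (2.42 ± 0.26 (SE), adjusted p = 2.78e-07), and the lower ones included Dnase1l3 (-2.32 ± 0.32 (SE), adjusted p = 5.74e-06) and Clec4g (-1.82 ± 0.32 (SE), adjusted p = 9.34e-05), which mark the endothelium of the sinusoids, while Lyve1, another sinusoidal marker, was higher (2.24 ± 0.45 (SE), adjusted p = 3.73e-04). Of 21 Kupffer cell and macrophage markers, 9 were lower and 5 higher (8 and 2 without tumor C). Clec4f, the lectin by which Kupffer cells are defined, had 6.95 and 5.04 against 8.93, 9.44 and 9.56 (-3.38 ± 0.37 (SE), adjusted p = 4.11e-07), the scavenger receptor Cd163 was undetected in tumors and at least 5.00-fold lower (adjusted p = 5.00e-06), and Vsig4, a complement receptor of Kupffer cells, differed by -2.45 ± 0.30 (SE), adjusted p = 1.68e-06. Cd14, the lipopolysaccharide coreceptor, had 9.64 and 10.74 against 4.94, 5.48 and 7.27 (4.42 ± 0.53 (SE), adjusted p = 1.21e-06), and Lyz2, the lysozyme of myeloid cells, differed by 2.31 ± 0.34 (SE), adjusted p = 1.71e-05. 

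Markers of other blood cells varied with the tumor. Of 8 neutrophil and monocyte markers, 6 were higher and none lower, with a median of 0.19 in tumor B and 2.92 in tumor C, and without tumor C 2 were higher. S100a9, a neutrophil alarmin, had 7.11 in tumor B, inside the range of the livers (5.30 to 7.31), and 10.68 in tumor C. Erythroid markers were higher in 4 of 5 and lower in 1: the globin Hba-a1 had 14.03 and 14.97 against 12.66, 12.99 and 13.59 (1.41 ± 0.37 (SE), adjusted p = 0.00409), and Alas2, the heme synthesis enzyme of red cell precursors, differed by -0.99 ± 0.35 (SE), adjusted p = 0.0288. Without tumor C 1 erythroid marker was higher. The part of blood in the other differences was not tested. T and NK cell markers were higher in 2 of 9 (Il7r and Thy1), a share of 22.2% near the 19.1% of all genes. None of 4 B cell markers was called, and Cd3d and Cd3e were undetected in both tumors. Interferon-stimulated genes were higher in 11 of 39 (28.2%, median 0.41), and genes of MHC class II and costimulation in 7 of 11 (63.6%), with none lower in either list. With array weights 3 were higher in each of these lists, and 1 T and NK marker was higher. Among cytokine and NF-kB target genes 16 of 31 were higher, among them the alarmin Il33 (7.09 and 10.72 against 4.78, 5.44 and 6.35, 3.42 ± 0.52 (SE), adjusted p = 2.19e-05), and 2 lower, Il18 and the chemokine Cxcl12 (8.86 and 8.63 against 11.31, 11.92 and 12.33, -3.13 ± 0.30 (SE), adjusted p = 4.78e-08). Without tumor C 6 of these 31 were higher.

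Energy metabolism divided the tumors. Genes of fatty acid oxidation and ketogenesis were lower in 11 of 28 and higher in none, with a median of -0.20 in tumor B and -1.27 in tumor C. Without tumor C 1 was lower and 2 were higher. Hsd17b4, a peroxisomal oxidation enzyme, had 12.63 and 10.80 in the tumors, against 12.78, 12.97 and 13.23 in the livers (-1.26 ± 0.25 (SE), adjusted p = 4.16e-04), and its call was lost without tumor C (adjusted p = 0.164). Glycolysis genes were higher in 7 of 16 and lower in 4, with medians of 0.03 in tumor B and 1.04 in tumor C, and without tumor C 3 were higher and none lower. Pkm, the pyruvate kinase gene of non-hepatic tissues, had 8.35 and 11.93 against 6.83, 6.96 and 7.71 (3.06 ± 0.48 (SE), adjusted p = 2.93e-05), and Pfkp, the platelet-type phosphofructokinase, had 5.85 and 10.33 and was undetected in the livers (at least 7.13-fold higher, adjusted p = 1.15e-04). Cholesterol synthesis had medians of 0.93 in tumor B and -0.34 in tumor C, and 5 genes higher and 2 lower of 18 (1 higher without tumor B). Against the livers of its own array set the list median was 0.45 for tumor B and 0.11 for tumor C. The set B livers include B_15, whose mean level over this list was 10.11, against at most 9.48 in the other livers and 10.17 in tumor B. The part of array set in the contrast between the tumors was not tested. Sqle, the squalene epoxidase, had 11.38 and 11.55 against 8.51, 9.41 and 11.07 (2.04 ± 0.41 (SE), adjusted p = 4.15e-04). NRF2 targets were higher in 9 of 26 and lower in 2, and without tumor C 1 was higher. The carbonyl reductase Cbr3 had 7.67 in tumor B and 12.59 in tumor C, against 5.74, 6.25 and 7.26 (3.80 ± 0.75 (SE), adjusted p = 3.63e-04), a call that was lost without tumor C (adjusted p = 0.145). Oxidative phosphorylation subunits had 13 lower (19.1%) and 5 higher (7.35%) of 68, and 2 lower and 0 higher with array weights. Proteasome subunits had 3 lower (7.69%) and 2 higher (5.13%) of 39. Over all genes 20.3% were lower and 19.1% higher, so neither list exceeded those shares.

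Plasma proteins and lipid genes were mixed. Of 35 complement and coagulation genes 13 were lower and 2 higher (8 lower without tumor C), and C6, a component of the membrane attack complex, had 8.47 and 4.74 in the tumors, against 11.13, 11.75 and 12.16 in the livers (-5.14 ± 0.58 (SE), adjusted p = 5.13e-07). Masp1, a protease of the lectin pathway, differed by -3.20 ± 0.41 (SE), adjusted p = 2.51e-06. Of 28 acute-phase genes 9 were higher and 3 lower. The metal-binding Mt1 had 14.10 and 15.18 against 11.70, 11.96 and 13.13 (2.52 ± 0.35 (SE), adjusted p = 8.03e-06), whereas Crp, the C-reactive protein, had 12.31 and 10.42 against 13.28, 13.49 and 13.64 (-2.10 ± 0.27 (SE), adjusted p = 3.00e-06) and Hamp, the iron hormone hepcidin, differed by -1.86 ± 0.33 (SE), adjusted p = 1.08e-04. Genes of lipid uptake and droplets were lower in 11 of 23 and higher in 5, among them Lpl, the lipoprotein lipase (12.81 and 12.83 against 9.35, 9.94 and 11.72, 2.74 ± 0.38 (SE), adjusted p = 7.60e-06). Of 23 lipogenic genes 8 were lower (2 without tumor C) and 4 higher, and Thrsp, a lipogenic factor of hepatocytes, had 5.33 and 7.23 against 8.02, 10.01 and 10.89 (-3.55 ± 0.72 (SE), adjusted p = 4.56e-04).

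**Figure D4:**
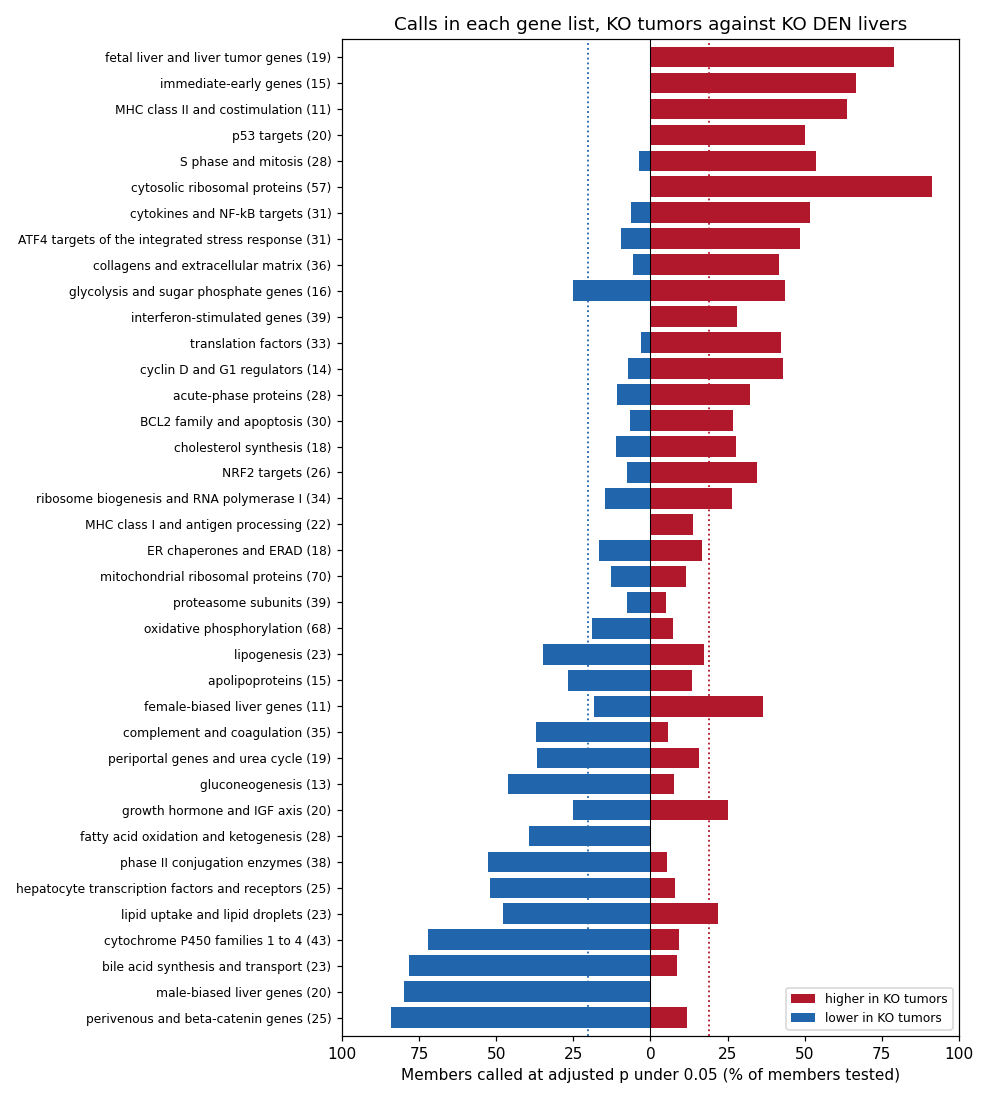
Share of tested members called higher (red, to the right) and lower (blue, to the left) in Chop-/- tumors at an adjusted p under 0.05, in 38 gene lists ordered by their median difference, with the number of tested members in parentheses; dotted lines mark the shares over all 8969 genes (19.1% and 20.3%). Ribosomal proteins have the largest share of members higher (91.2%) and perivenous genes the largest share lower (84%).

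The tumors differed more than 2-fold from each other in 1436 of 8969 genes and more than 4-fold in 324, and the median SD over genes was 0.289 between the tumors and 0.229 between the livers (0.211 without B_15). These single differences have no test. Aqp8, a water channel of hepatocytes, had 10.94 in tumor B and 4.50 in tumor C, where the livers ranged 8.63 to 10.70. Ces1d, a carboxylesterase that hydrolyzes triglycerides, had 13.07 and 7.85 (livers 13.46 to 14.15), and the complement gene C8a had 11.79 and 7.00 (livers 11.60 to 12.34). Tumor B was thus near liver level in these genes and tumor C was far below it. The reverse order held in Nnmt, which methylates nicotinamide, with 7.05 in tumor B and 14.17 in tumor C (livers 11.49 to 12.66), and in Mmd2, a Golgi membrane protein, with 4.34 and 12.29 (livers 6.14 to 8.65), where the livers lay between the tumors. Igf2, the fetal growth factor, had 5.06 in tumor B, where it was undetected, and 11.78 in tumor C (livers 5.38 to 6.64), and Timp1, an inhibitor of matrix proteases, had 5.24 and 10.86 (livers 4.49 to 4.78). Igf2 was called in the mean (2.62 ± 0.94 (SE), adjusted p = 0.0296) but had a difference of -0.74 without tumor C.

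The tumor difference was then set against that of wild-type mice, fitted as an interaction. Wild-type tumors against wild-type DEN livers gave 1086 genes higher (12.1%) and 917 lower (10.2%). Of the genes called higher in Chop-/- tumors 737 were also called higher in wild-type tumors, and of those called lower 707 were also called lower, while 2 and 7 were called in the opposite direction. The difference between the genotypes itself passed an adjusted p under 0.05 for 147 genes in which the Chop-/- difference was the higher one (1.64%) and 274 in which it was the lower one (3.05%). It rested largely on tumor C: without it 12 and 39 genes passed, and without tumor B 753 and 952. Without liver B_15 the counts were 216 and 332. Leaving out a wild-type tumor gave 71 and 162 (A_04), 46 and 124 (A_08) or 314 and 493 (B_12), leaving out wild-type liver A_03 gave 86 and 180, and leaving out liver A_06 or A_07 gave 92 or 91 higher. The groups hold 2 and 3 tumors, and wild-type tumors lie in sets A and B only, so differences between genotypes and between single tumors cannot be told apart.

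Genes of detoxification and bile acids were among those lower beyond the wild-type difference. The interaction was called lower for 16 of 43 P450 genes, 12 of 25 perivenous genes and 9 of 23 bile acid genes, and higher for none in these lists, against 3.05% of all genes lower. Without tumor C it was called lower for 7, 5 and 5 of them. The P450 median was -1.66 in Chop-/- and -0.92 in wild-type mice. Cyp2e1 had 13.51, 13.39 and 12.44 in the 3 wild-type tumors, against 14.77, 14.91 and 14.97 as lowest, median and highest of 6 wild-type livers (-1.79 ± 0.20 (SE)), and the difference between genotypes was -4.16 ± 0.30 (adjusted p = 1.29e-08). Pon1 differed between genotypes by -4.33 ± 0.53 (adjusted p = 5.26e-05), Cyp8b1 by -3.84 ± 0.51 (adjusted p = 1.06e-04), Cyp2c37 by -4.22 (adjusted p = 5.26e-05) and Cyp2c50 by -4.09 (adjusted p = 5.26e-05). Serpina6, the plasma carrier of corticosteroids, moved in opposite directions: it had 9.48 and 8.70 in Chop-/- tumors, against 10.86, 11.13 and 11.69 in their livers (-2.08, adjusted p = 5.69e-05), and 12.69, 13.65 and 11.36 in wild-type tumors, against 10.40, 10.85 and 11.10 in theirs (1.78, adjusted p = 1.84e-04). All 6 of these genes kept their call in each of the 32 alternatives run, the omission of tumor C among them.

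Among genes higher beyond the wild-type difference, cytosolic ribosomal proteins had 16 of 57 called, with a median of 0.87 in Chop-/- and 0.28 in wild-type tumors, and erythroid markers had 4 of 5, against 1.64% of all genes. Without tumor C none of the genes in either list was called, and with array weights 3 ribosomal proteins and 1 erythroid marker were. Lipo3, a lipase of the lysosomal acid lipase family, had 7.73 and 8.98 in Chop-/- tumors, against 4.49, 5.21 and 5.92 in their livers, and a genotype difference of 3.05 ± 0.44 (adjusted p = 3.67e-04) that kept its call in all 32 alternatives. Hilpda, Ier3 and Gpnmb had differences of 3.13, 3.18 and 3.59 (adjusted p = 0.00316, 0.00438 and 0.0204), and Tmem54, a transmembrane protein, one of 3.88 (adjusted p = 0.0194). These 4 lost their call without tumor C. The acute-phase gene Orm2 had 8.94 in tumor B and 13.54 in tumor C, and its genotype difference (3.58, adjusted p = 0.0496) lost its call in 26 of 32 alternatives. Of 31 ATF4 targets 13 were higher and 2 lower in wild-type tumors, and the interaction was called for none of them. The median difference over this list was 0.25 in tumor B, 0.81 in tumor C and 0.53 in wild-type tumors. The Chop-/- tumors thus lay on either side of wild type, and the lack of a call does not show an equal response. Nupr1 had a Chop-/- difference of 2.39 and a wild-type one of 3.75, with a genotype difference of -1.36 ± 0.51 (adjusted p = 0.122). S phase and mitosis genes were called higher in 23 of 28 in wild-type tumors, and the interaction was called lower for 3 and higher for none (none either way without tumor C). Ddit3 itself was higher in wild-type tumors than in wild-type livers by 2.13 ± 0.17 (adjusted p = 8.43e-08).

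**Figure D5:**
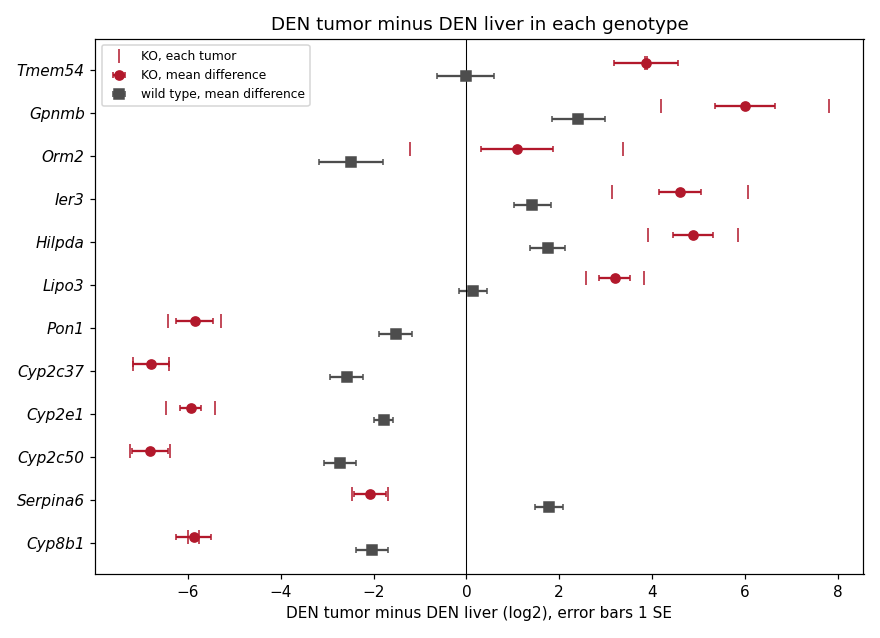
Log2 difference of DEN tumor minus DEN liver in Chop-/- mice (red circles, with ticks for each tumor) and in wild-type mice (grey squares) for the 6 genes with the largest genotype difference in each direction; error bars are 1 SE from limma. In the lower 6 genes both Chop-/- tumors lie left of the wild-type mean, and in Orm2 the Chop-/- tumors lie on opposite sides of 0.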

How the data were processed

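RNA of frozen liver or tumor was extracted with Trizol and read on Illumina MouseRef-8 v2.0 BeadChips, 1 array per sample. The deposited signal intensities and detection p-values were exported from GenomeStudio 2011.1 per the submitters' processing notes. Although the file is described as not normalized, 26.9% of the deposited intensities lie below 0 and every array holds the same sorted values, so the authors' signals had been background-subtracted and quantile-normalized, which scaling here could not undo. A deposited series table holds the authors' log2 values, equal to log2 of those signals plus a constant. It served as an alternative.

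Intensities were passed through neqc (offset 16, log2) in limma 3.58.1 under R 4.3.3 (statmod 1.5.0). Of 25697 probes, 12707 had a detection p under 0.01 on at least 2 of 24 arrays, and those with 1 gene symbol were kept (1719 of all probes had no or several symbols). The brightest probe stood for its gene, which left 8969 genes, 2220 of them with several probes. One model over 6 groups was fitted to the 24 arrays with empirical Bayes moderation and Benjamini-Hochberg adjustment. In total 48 value columns were not used. The number of arrays limits precision. The study's methods count the samples of a group as animals.

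The members and lists were chosen with earlier results of these data known. Genes named by rule were the 12 with the largest difference in each direction whose tumors lay outside the liver range, up to 4 of each list by p, the 6 with the largest genotype difference in each direction, the 6 with the largest difference between tumors in each direction, and Ddit3. Scripts were tested on simulated data. Promoter sequences came from RefSeq (GRCm38.p6). Alternatives covered background correction, scaling, probe filters, array weights, array set and replicate blocks, an unmoderated test, the reference livers and each array left out.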

Additional observations from a re-analysis of the deposited data

Results flagged for a closer look

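Within the 7 Chop-/- DEN livers, 25 of the 136 genes named above had a highest or lowest liver set apart from the others by more than Dixon's limit. Chance flags about 1 independent group in 20. These genes share the same 7 livers and many were named for their values, so that rate is no measure of the count. Liver B_15 was that liver in 21 genes. Its gap as a share of the whole range was 0.633 in Afp, 0.732 in Cd63, 0.645 in Cdkn2b, 0.597 in Ctnnb1, 0.621 in Cyp4f16, 0.669 in Esm1, 0.693 in Golm1, 0.575 in Gpc3, 0.682 in Hilpda, 0.574 in Igfbp1, 0.696 in Lpl, 0.683 in Lyz2, 0.748 in Psat1, 0.588 in Sqle and 0.687 in Tmem54, where it was high, and 0.63 in Axin2, 0.716 in Igf1, 0.672 in Lgr5, 0.586 in Pigr, 0.814 in Sp5 and 0.631 in Tk1, where it was low. Other livers stood apart in Clec4f (0.641, liver A_07 low), Mdm2 (0.714, liver A_07 low), Mt1 (0.61, liver C_22 high) and Pfkp (0.647, liver B_14 high).
The 12 genes named for the largest genotype difference of the tumor effect were drawn from those at an adjusted p under 0.05 in limma. That number is set by the naming rule, and other named genes were not counted here. The genotype difference was positive in Tmem54 (3.88), Gpnmb (3.59), Orm2 (3.58), Ier3 (3.18), Hilpda (3.13) and Lipo3 (3.05). It was negative in Pon1 (-4.33), Cyp2c37 (-4.22), Cyp2e1 (-4.16), Cyp2c50 (-4.09), Serpina6 (-3.87) and Cyp8b1 (-3.84) (log2, Chop-/- minus wild type). The values of single tumors behind these differences are given above.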

How the results depend on the processing

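Of genes called in the main comparison, 46.8% to 50.8% were higher under the alternatives run. Array weights left 766 genes higher and 810 lower. At the study's thresholds the authors' log2 values gave 1051 higher and 992 lower, and the replicate block on those values gave 1061 higher and 1025 lower. Leaving out 1 array gave 1025 to 1795 higher and 991 to 1893 lower, lowest without tumor C. The genotype difference gave 57 higher and 136 lower with array weights, 82 and 148 with array set as a fixed block, 81 and 137 without moderation, and 318 and 507 against PBS-treated livers, a reference chosen after seeing the data. Leaving out 1 array gave 12 to 753 higher and 39 to 952 lower. The cause of these shifts was not tested. Deviations from the group mean correlated at 0.0752 and 0.0520 between a tumor and the liver of the same replicate number. With 2 tumors these deviations mirror each other, so the values cannot show whether such samples were paired. With the replicate block on the authors' log2 values 34.5% of genes were called. Leaving out 1 array turned the sign of Ddit3, Fcrla and Mzb1, all near 0, and of Orm2 (-1.21 without tumor C to 3.39 without tumor B), Aqp8 (-5.32 without tumor B to 1.13 without tumor C), Serpinb1a (-1.39 without tumor C to 4.34 without tumor B), Nnmt (-4.96 without tumor C to 2.17 without tumor B), Spon2 (-2.87 without tumor B to 1.76 without tumor C), Mmd2 (-3.19 without tumor C to 4.76 without tumor B) and Igf2 (-0.74 without tumor C to 5.98 without tumor B), and Igf2 was at -0.90 within array set B. Probes near background limit low genes to bounds.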
